A study of Mus musculus with 4 samples.

Results

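The interleukin-6 (IL-6) family was followed in EO771 cells, a mouse mammary carcinoma line, as 5 genes for secreted ligands (Il6, Il11, Lif, Osm and Clcf1) and 5 genes for receptor chains (Il6ra, Il6st, Il11ra1, Lifr and Osmr). A probe set was taken for a member when the annotation of the array platform named that gene alone, and the probe set with the highest mean over all arrays stood for the gene. This gave 1 probe set each for 9 of the 10 members, among 22180 genes in all. Il11ra1 was not analysed here, because no probe set was annotated to it alone.

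Of the 4 arrays, 2 came from EO771 cells that received freshly prepared recombinant mouse A-FABP at 100 ng/ml in the medium. A-FABP is the adipocyte fatty acid binding protein that the gene Fabp4 encodes. The other 2 came from EO771 cells of the control group, named in the design as given PBS. All cells shared the line, the RPMI medium and a period of culture before treatment. How long A-FABP was left on the cells is not stated in the labels. The arrays are titled as biological replicates, but nothing in the labels says that they came from separate cultures, so p-values measure the spread between these samples, which may be technical. One label field of the PBS arrays, the description, names A-FABP treatment as well. The design text, source names and titles mark these arrays as controls, and the titles decided the groups.

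Cytokines of the IL-6 family signal through receptor complexes that contain the shared chain gp130, encoded by Il6st. IL-6 and IL-11 first bind their own alpha chains (Il6ra and Il11ra1), whereas leukemia inhibitory factor (Lif) and oncostatin M (Osm) use gp130 together with a second signalling chain, Lifr or Osmr. The complexes activate JAK kinases, which phosphorylate STAT3 and feed the MAPK branch, and SOCS3 limits the signal. In breast tumours the family is known as a link between inflammatory cells of the stroma and the carcinoma cells.

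Values are log2 expression values after robust multi-array averaging (RMA), and every difference is A-FABP minus PBS on that log2 scale. Array medians lay between 5.95 and 6.03. In the limma fit over 41345 probe sets, 0 passed an adjusted p of 0.05 (0% called), the lowest adjusted p was 0.296, and 6258 (15.1%) had an unadjusted p under 0.05. The genes below are therefore given as values and not as calls. The cells were checked against mammary carcinoma markers. The mesenchymal filament gene Vim lay at percentile 99.99 of all probe sets and the luminal keratin gene Krt8 at 82.97. The epithelial adhesion gene Epcam lay at percentile 24.0, and the keratin genes Krt18 and Krt19 at 50.5 and 50.4, so the defining epithelial markers other than Krt8 were near or below the array median. Because detection was not called, a dim value is a low signal and not proof of an absent transcript.

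Among the 9 measured members, Il11, Il6 and Osmr had higher values with A-FABP and Osm had lower values, each by 0.29 to 0.52 log2 units. The common chain Il6st and the IL-6 receptor gene Il6ra differed by 0.05 or less. None passed the limma adjusted threshold. At an unadjusted p under 0.05 there were 3 members higher and 1 lower, together 44.4% of 9, where 13.0% of all genes lay under that p, 4.81% higher and 8.24% lower. Because the members were chosen with earlier results of these data known, these shares are a description only. The count of 4 was 2 after repeated quantile normalization, 2 with trend and robust settings and 2 with a replicate block. The 2 A-FABP arrays did not overlap the 2 PBS arrays in 5 members (55.6%), against 53.5% of all genes (26.0% higher and 27.5% lower), a share near the background. In RNA from a bulk culture, fewer expressing cells and less RNA per cell cannot be told apart.

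**Figure D1:**
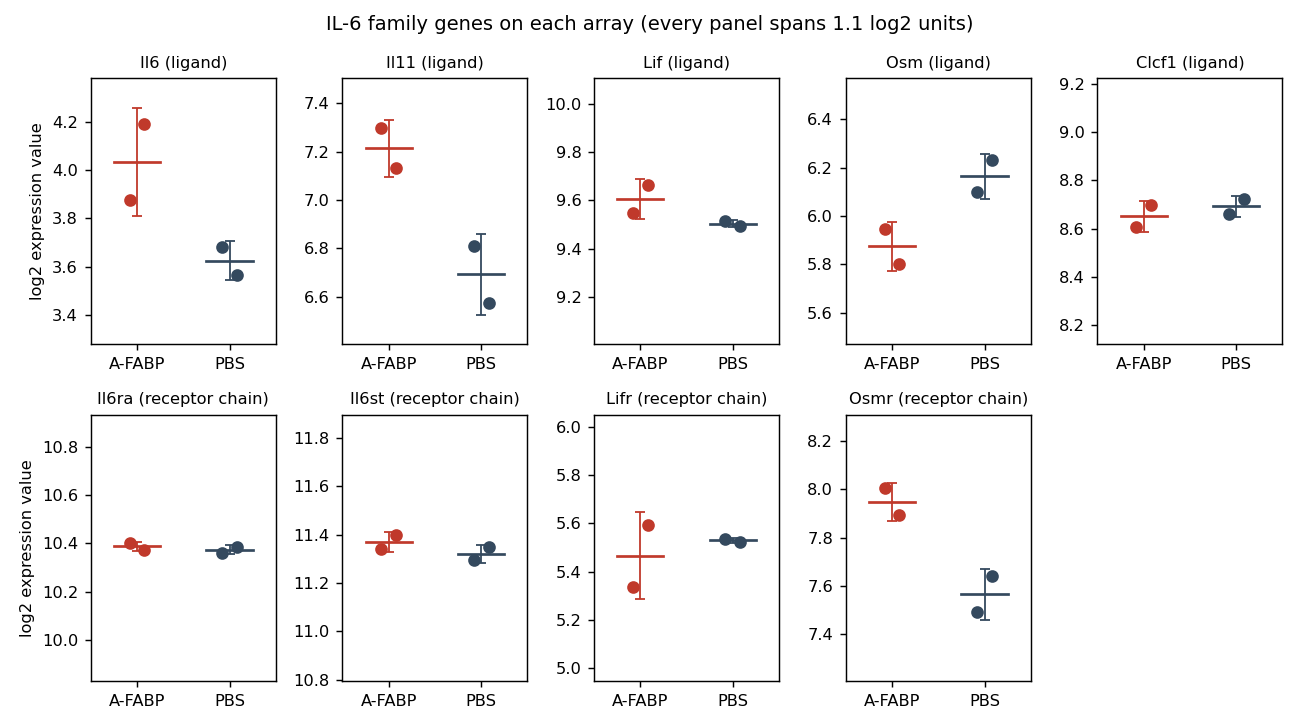
Log2 expression values of the 9 measured members on each array, with A-FABP (left, red) and PBS (right, dark blue); points are arrays, horizontal lines group means and bars the SD over 2 arrays. The groups are separate in Il6, Il11, Lif, Osm and Osmr, and every panel spans the same height, so the Il11 gap of 0.32 can be set beside the Lif gap of 0.04.

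Il11 encodes interleukin-11, a ligand that tumour cells and stromal fibroblasts can both secrete. Its values were 7.30 and 7.13 with A-FABP, against 6.81 and 6.57 with PBS. Both A-FABP arrays lay above both PBS arrays, and the gap between the groups (0.32) was wider than the range within either group. The difference was 0.52 ± 0.13 (SE, 2 arrays per group; 95% CI 0.16 to 0.88), or 1.44-fold higher, with a limma adjusted p of 0.296. Among 3348 genes at mean levels of 6 to 7 the median difference was -0.10 (quartiles -0.23 and 0.05). The mean level of Il11, 6.95, lay at the edge of that band, and genes at 7 to 8 had a median of 0.09 (quartiles -0.02 and 0.20). The Il11 value lay above the upper quartile of both bands. The difference ran from 0.40 to 0.64 when each array was left out in turn.

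Il6 encodes interleukin-6, the founding cytokine of the family. Its values were 3.88 and 4.19 with A-FABP, against 3.68 and 3.57 with PBS. The groups did not overlap, but the gap (0.19) was smaller than the range within the A-FABP pair, and all 4 values were dim, at percentile 12.2 of all probe sets. The difference was 0.41 ± 0.14 (SE; 95% CI 0.01 to 0.80), with a limma adjusted p of 0.325. It was 0.25 without A-FABP replicate 2 and 0.57 without A-FABP replicate 1, so the second A-FABP array carried much of the size. RMA compresses differences this close to background, but replicate values also varied most there. The 1355 genes at levels of 3 to 4 had a within-group SD of 0.25, the largest of any 1-unit band of level. Their median difference was -0.04, with an upper quartile of 0.12. With trend and robust settings in limma, the 95% CI of the Il6 difference was -0.08 to 0.90.

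The regions before the transcription starts of Il6 and Il11 are shown because these 2 ligand genes had the highest differences of the family. Each stretch is the 250 bases before a start in RefSeq (build GRCm38.p6), read 5′ to 3′ on the strand of the gene, with motif matches in capitals. Il6 lies on chromosome 5 (chr5:30012864-30013113, plus strand). Il11 lies on chromosome 7, minus strand, and has 2 starts in RefSeq, an outer one (chr7:4782858-4783107) and an inner one (chr7:4778142-4778391). 
Il6: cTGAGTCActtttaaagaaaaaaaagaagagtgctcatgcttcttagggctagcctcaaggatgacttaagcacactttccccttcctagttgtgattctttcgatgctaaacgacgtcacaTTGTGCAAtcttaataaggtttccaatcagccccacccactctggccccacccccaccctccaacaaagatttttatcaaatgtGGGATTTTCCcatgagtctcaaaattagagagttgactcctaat
Il11, outer start: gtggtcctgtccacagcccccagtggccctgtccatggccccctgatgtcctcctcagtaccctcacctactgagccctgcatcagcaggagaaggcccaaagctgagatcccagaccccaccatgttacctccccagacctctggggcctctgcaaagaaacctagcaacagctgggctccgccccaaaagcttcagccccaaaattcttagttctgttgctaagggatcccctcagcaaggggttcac
Il11, inner start: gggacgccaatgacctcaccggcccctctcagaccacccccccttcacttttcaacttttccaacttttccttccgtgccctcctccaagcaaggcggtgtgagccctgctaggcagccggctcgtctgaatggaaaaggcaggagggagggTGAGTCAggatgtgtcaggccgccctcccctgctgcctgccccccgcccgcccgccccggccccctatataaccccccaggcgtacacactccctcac

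The capitals in Il6 mark, in reading order, an AP-1 motif 249 to 243 bases before the start, a C/EBP motif 128 to 121 bases before it and an NF-kB motif 44 to 35 bases before it. The capitals at the inner Il11 start mark an AP-1 motif 98 to 92 bases before the start, and the outer Il11 start had no match. The motifs searched on both strands were TGANTCA for AP-1, TTCNNNGAA for STAT factors, TTGCNNAA for C/EBP factors, TATAAA for the TATA box and the NF-kB motif, and no match overlapped another. They occurred in 6.75%, 7.02%, 9.56%, 12.4% and 7.25% of 32851 such stretches of all genes, in that order. Promoter entries existed for 8 of the 10 members. Those without an entry were Osm and Clcf1, the 2 ligands with differences below 0, so the ligand stretches cover only ligands above 0. An AP-1 motif stood before a start of each of the 3 ligand genes with an entry (Il6, Il11 and Lif, the last 228 to 222 bases before its start) and in 0 of 7 stretches of the 5 receptor chain genes. An NF-kB motif stood in Il6 and Lif and in 0 of those 7, and no member stretch held the STAT motif or the exact letters TATAAA. Variants of the TATA box were not searched, and the inner Il11 stretch holds the related letters TATATAA. A match describes letters in a window and does not show a site in use.

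Lif encodes leukemia inhibitory factor, which signals through gp130 and the LIF receptor. Its values were 9.55 and 9.66 with A-FABP, against 9.51 and 9.49 with PBS. The groups did not overlap, but were only 0.04 apart, less than the range of 0.11 within the A-FABP pair. The difference was 0.10 ± 0.09 (SE; 95% CI -0.14 to 0.35), with a limma adjusted p of 0.597, and the median of 2262 genes at levels of 9 to 10 was 0.06. It was 0.05 without A-FABP replicate 2 and 0.16 without A-FABP replicate 1. Lif was bright on all arrays, at percentile 88.6 of all probe sets.

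Osm encodes oncostatin M, a ligand known mainly from macrophages, neutrophils and T cells. Its values were 5.95 and 5.80 with A-FABP, against 6.10 and 6.23 with PBS. Both A-FABP arrays lay below both PBS arrays, by a gap of 0.15. The difference was -0.29 ± 0.10 (SE; 95% CI -0.58 to -0.0024), with a limma adjusted p of 0.328. Genes of this level (6 to 7) had a median of -0.10 and a lower quartile of -0.23, and after cyclic loess the Osm difference was -0.19. The mean level of Osm, 6.02, lay at the edge of that band, and genes at 5 to 6 had a lower quartile of -0.27. Osm lay near the array median, at percentile 50.7. Macrophage and pan-leukocyte markers lay below 0 in 8 of 10 genes, with a list median of -0.16, where all genes at levels of 5 to 6 had -0.15. The medians over the list were 5.44 and 5.35 with A-FABP, against 5.54 and 5.52 with PBS. The list median was -0.043 after cyclic loess, -0.24 without A-FABP replicate 1, -0.0375 without A-FABP replicate 2 and 0.040 with only brighter probe sets. The last is a median over the genes that the filter kept, and not over all 10. The 10 mean levels ran from 4.22 to 12.8, with the pan-leukocyte gene Ptprc lowest and the lysosomal gene Cd68 highest. The macrophage receptor genes Csf1r and Cd14, at percentiles 64.4 and 68.9, lay at 0.16 and 0.28. These 4 were named after their values were seen, and the part of such cells in the Osm value was not tested.

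Clcf1 encodes cardiotrophin-like cytokine factor 1, which acts through the ciliary neurotrophic factor receptor complex. Its values were 8.61 and 8.70 with A-FABP, against 8.66 and 8.72 with PBS. The groups overlapped, and the difference was -0.04 ± 0.09 (SE; 95% CI -0.28 to 0.20; limma adjusted p = 0.843). Genes at levels of 8 to 9 had a median of 0.09 and a lower quartile of 0.016, so Clcf1 also lay below the quartiles of its band. Its sign turned to 0.02 after median centring and to 0.00 without A-FABP replicate 1.

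Among the 4 measured receptor chains, Osmr had the largest difference. Osmr encodes the signalling chain that pairs with gp130 to bind oncostatin M. Its values were 8.005 and 7.893 with A-FABP, against 7.491 and 7.639 with PBS. Both A-FABP arrays lay above both PBS arrays, by a gap of 0.25 that exceeded the range within either pair. The difference was 0.38 ± 0.10 (SE; 95% CI 0.10 to 0.67), or 1.30-fold higher, with a limma adjusted p of 0.296. Genes at levels of 7 to 8 had a median of 0.09 and an upper quartile of 0.20, and after cyclic loess the Osmr difference was 0.32. It ran from 0.31 to 0.46 when each array was left out in turn.

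The stretch before the Osmr start is shown as the receptor gene with the highest difference (chromosome 15, minus strand, chr15:6874314-6874563, RefSeq, GRCm38.p6). None of the 5 motifs matched in these 250 bases, so it has no capitals.
Osmr: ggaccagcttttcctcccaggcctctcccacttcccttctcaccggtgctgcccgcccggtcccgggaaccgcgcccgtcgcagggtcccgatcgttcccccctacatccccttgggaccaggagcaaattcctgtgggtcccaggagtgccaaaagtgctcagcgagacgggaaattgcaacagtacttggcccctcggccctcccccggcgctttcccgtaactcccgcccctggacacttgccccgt

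The remaining receptor chains differed by less than their standard errors. Il6st, which encodes gp130, had 11.34 and 11.40 with A-FABP, against 11.29 and 11.35 with PBS, overlapping values that differed by 0.05 (95% CI -0.18 to 0.28). It was one of the brightest probe sets, at percentile 97.4. Il6ra, the IL-6 binding chain, had 10.40 and 10.37 with A-FABP, against 10.36 and 10.39 with PBS, overlapping values that differed by 0.01 (95% CI -0.20 to 0.23). Lifr, the signalling chain for leukemia inhibitory factor, had 5.34 and 5.59 with A-FABP, against 5.54 and 5.52 with PBS, with both PBS values inside the A-FABP range. Its difference was -0.06 (95% CI -0.40 to 0.27), and its sign turned under each of the 3 other scalings, to between 0.00 and 0.06. The limma adjusted p-values of these 3 genes were 0.802, 0.948 and 0.823. The intervals of Il6st and Il6ra together reach from -0.20 to 0.28, so shifts inside that range could not be resolved with 2 arrays per group.

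**Figure D2:**
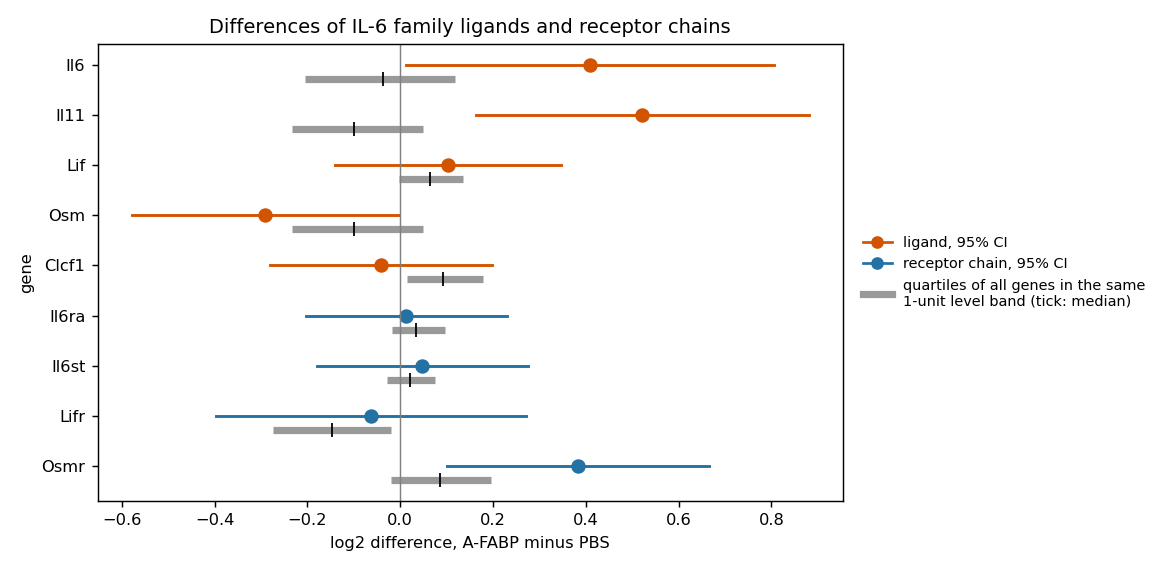
Log2 difference (A-FABP minus PBS, horizontal axis) of each member with its 95% confidence interval from limma, for ligands (orange) and receptor chains (blue); grey bars span the quartiles of all genes in the same 1-unit band of mean level, with a tick at the median. Il11, Il6 and Osmr lie right of the grey bars of their bands, and Osm and Clcf1 lie left of theirs. The intervals of Il11, Il6, Osmr and Osm exclude 0, and those of the other 5 members, with Clcf1 among them, include 0.

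Set side by side, the ligands spread over a wider range than the receptor chains. The 2 groups also differed in level, with a median level of 6.95 for the ligands and 9.07 for the receptor chains. Dimmer genes varied more between replicates, with a within-group SD of 0.25 at levels of 3 to 4 and 0.046 at 11 to 12. The part of level in the wider range was not tested. Of the 5 ligands 3 lay above 0 and 2 below, with a median of 0.10 and a range of -0.29 to 0.52. Of the 4 receptor chains 3 lay above 0 and 1 below, with a median of 0.03 and a range of -0.06 to 0.38. The 1 below was Lifr, and after median centring or without A-FABP replicate 1 all 4 receptor chains lay above 0. Over all 22180 genes the median was -0.01 (quartiles -0.16 and 0.10), and 47.6% lay above 0. The ligand median was that of Lif, and ranged from 0.03 to 0.17 over the processing alternatives, while the receptor median ranged from 0.01 to 0.10.

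In 4 ligand and receptor pairs the difference of the ligand was set against that of its chain within each array. Osm and its receptor gene Osmr lay furthest apart, with a ligand minus receptor difference of -0.67. The within-array value of this pair had an SD of 0.02 over the 2 A-FABP arrays and 0.01 over the 2 PBS arrays. For either gene alone the SD within a group was 0.08 to 0.10. All genes at the levels of Osm (6 to 7) and Osmr (7 to 8) had medians of -0.10 and 0.09. After cyclic loess the differences were -0.19 for Osm and 0.32 for Osmr. Il11 against the shared chain Il6st gave 0.47, with an SD of 0.16 over the A-FABP arrays and 0.20 over the PBS arrays. With SDs in the same order, Il6 against Il6ra gave 0.39 (0.24 and 0.10) and Lif against Lifr gave 0.17 (0.10 and 0.0035). An exact two-sided permutation test with 2 arrays against 2 gave p = 0.333 in each pair, which is the smallest it can give, and 0.333 after Benjamini-Hochberg adjustment over the 4 pairs.

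**Figure D3:**
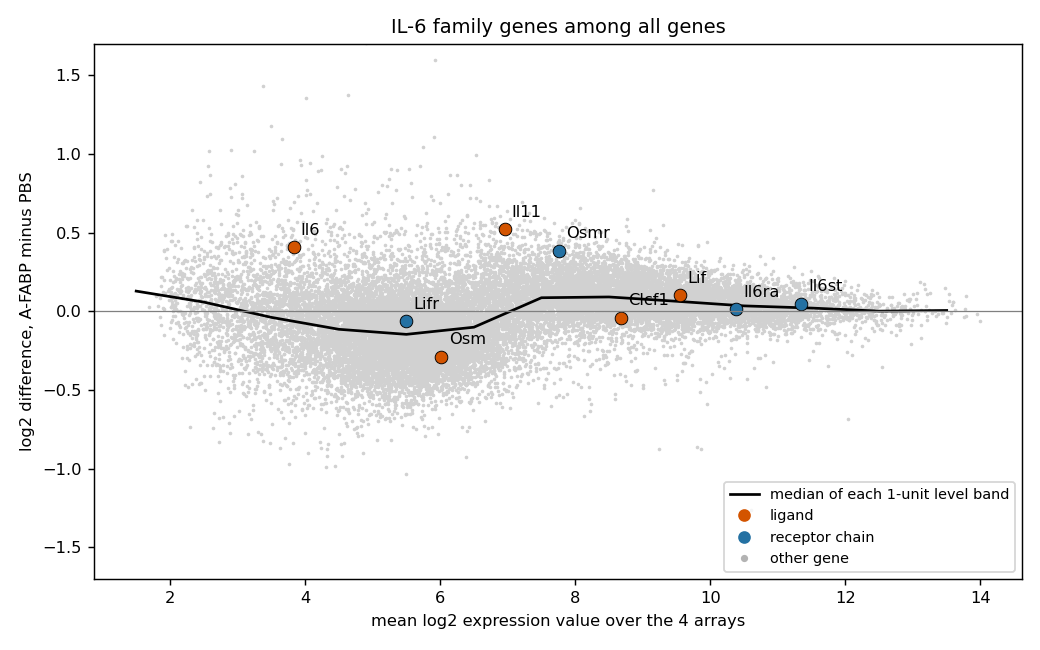
Log2 difference (A-FABP minus PBS) of every gene against its mean log2 expression value over the 4 arrays, with members labelled (orange ligands, blue receptor chains) and the median of each 1-unit band as a black line; 1 gene lies outside the vertical range. The band median is below 0 at levels of 3 to 7 and above 0 from 7 upward, and Il6 and Il11 lie above the line by more than the other ligands.

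Genes of the family that lie next to each other in the genome are given side by side. By the order of coding genes in RefSeq, Osm and Lif are neighbours on chromosome 11, and their differences were -0.29 and 0.10. Osmr and Lifr are neighbours on chromosome 15, with differences of 0.38 and -0.06, and Lifr turned above 0 under the 3 other scalings and without A-FABP replicate 1. Il6st lies beside Il31ra, a related receptor chain for interleukin-31, on chromosome 13, and the pair had differences of 0.05 and -0.24. Il31ra was dim, at 5.44 and 5.42 with A-FABP against 5.72 and 5.62 with PBS, and its groups did not overlap.

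The other 8 measured genes of the family lay below 0 in the deposited values, where 47.6% of all genes lay above 0. Cntfr was above 0 under each of the 3 other scalings. They were 5 further ligand genes, with a median of -0.32, and 3 further receptor chains, with a median of -0.09. Il27 (-0.44) and Ebi3 (-0.43) encode the subunits of interleukin-27, Ctf1 (-0.32) and Ctf2 (-0.18) cardiotrophins, and Il31 (-0.24) interleukin-31. The Il27 values were 7.27 and 6.65 with A-FABP, against 7.21 and 7.59 with PBS, and overlapped. With an array left out, Il27 ranged from -0.75 to -0.13, Ebi3 from -0.72 to -0.15, Ctf1 from -0.51 to -0.12 and Ctf2 from -0.25 to -0.11. The median of the 5 ligands ranged from -0.51 without PBS control replicate 1 to -0.15 without PBS control replicate 2. That of the 3 receptor chains was 0.0036 without PBS control replicate 2, -0.23 without A-FABP replicate 2, -0.19 without PBS control replicate 1 and -0.029 after median centring. Ebi3 lay at -0.20 at its other probe set. Cntfr, the chain that binds the Clcf1 product, lay at -0.03 and Il27ra at -0.09, both with overlapping groups. At an unadjusted p under 0.05 by limma there were 2 of these 8 genes, Il31 and Il31ra, where 13.0% of all genes lay under that p. Both were lower, and both were at levels where the median of all genes was -0.11 or -0.15. Ebi3, Ctf2 and Cntfr lay at such levels too. Il27, Ctf1 and Il27ra lay at levels of 7 to 8, where the median was 0.09.

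Downstream of the receptors, the kinases and STAT factors had a median of 0.01 over 6 measured genes, 4 above 0 and 2 below, of which 0 had an unadjusted p under 0.05 by limma and 0 passed the adjusted threshold. Jak1 lay at -0.02, Jak2 at 0.11 and Tyk2 at 0.19, the 3 kinases that bind gp130-type receptors. Jak2 and Tyk2 lay above the upper quartile of all genes (0.10). The upper quartile was 0.20 among genes at levels of 7 to 8 and 0.18 at 8 to 9. Against these, Jak2 (mean level 8.65) lay below and Tyk2 (mean level 7.94) lay close. In each of the 2 genes both A-FABP arrays lay above both PBS arrays, as in 26.0% of all genes. Jak2 was 0.04 after cyclic loess. Stat3, the main factor of the pathway, had 11.43 and 11.41 with A-FABP, against 11.45 and 11.43 with PBS. The adaptors of the MAPK branch had a median of 0.07 over 5 genes, again with 0 at an unadjusted p under 0.05, and the 2 receptor sheddase genes had a median of 0.07.

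The inhibitors of the pathway went both ways, with a median of 0.02 over 9 genes. This median was 0.08 after median centring and 0.09 with averaged probe sets. It turned to -0.04 after cyclic loess and -0.03 after repeated quantile normalization. Socs3, the feedback inhibitor that binds gp130, had 8.80 and 8.75 with A-FABP, against 8.89 and 8.80 with PBS, overlapping values with a difference of -0.07 (0.05 at its other probe set). Socs1 lay at -0.01, and Socs2 lay at -0.34 but at 0.52 at its other probe set. At an unadjusted p under 0.05, Pias3, an inhibitor of STAT3, was higher (0.24 ± 0.08 SE) and Cish, a STAT5-induced inhibitor, was lower (-0.33 ± 0.11 SE, and -0.53 at its other probe set). The limma adjusted p was 0.318 for Pias3 and 0.319 for Cish.

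STAT3 target genes lay lower more often than higher. Of 20 genes 14 were below 0 and 6 above, with a median of -0.11, where all genes had -0.01. At an unadjusted p under 0.05 there were 5 lower and 0 higher, beside background shares of 8.24% lower and 4.81% higher. The lower ones were the AP-1 genes Junb (-0.43 ± 0.08 SE) and Fos (-0.52 ± 0.15 SE), the kinase gene Pim1 (-0.42 ± 0.10 SE, and -0.18 at its other probe set), the angiogenic factor gene Vegfa (-0.35 ± 0.08 SE) and the iron-binding lipocalin gene Lcn2 (-0.45 ± 0.14 SE), the last named after its values were seen. Vegfa had 11.60 and 11.53 with A-FABP, against 11.90 and 11.93 with PBS, well separated groups at a bright level. The same genes are also targets of other pathways, and 0 of the 20 passed the limma adjusted threshold. The list median was -0.05 after median centring and -0.15 after cyclic loess.

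Factors known to act on Il6 transcription or on Il6 mRNA had a median of -0.04 over 13 genes. Of these, 3 were lower and 0 higher at an unadjusted p under 0.05 by limma, beside 8.24% lower and 4.81% higher among all genes. Zfp36 encodes tristetraprolin, which promotes the decay of cytokine mRNAs. Zfp36 had 10.61 and 10.55 with A-FABP, against 11.00 and 11.11 with PBS, a difference of -0.48 ± 0.09 (SE). The NF-kB regulators Nfkbia and Nfkbiz lay at -0.69 ± 0.11 and -0.34 ± 0.08 (SE). Cebpb, a transcription factor that binds the Il6 promoter, was counted with the STAT3 targets and not with these 13 genes, and lay at -0.14 ± 0.08 (SE). The limma adjusted p was 0.296 for Zfp36, Nfkbia and Nfkbiz and 0.481 for Cebpb. The list median turned to 0.02 after median centring.

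**Figure D4:**
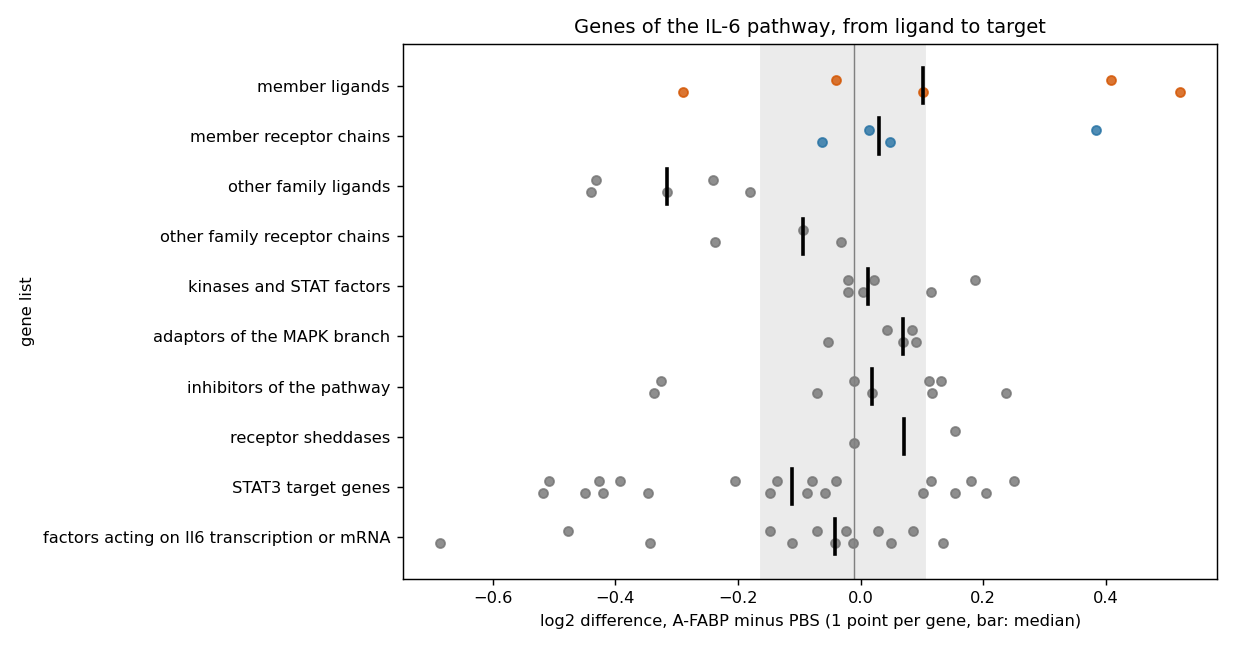
Log2 differences (A-FABP minus PBS) of the measured genes in each list, 1 point per gene, with a black bar at the list median; the grey field spans the quartiles of all genes (-0.16 to 0.10) and the grey line their median. Member ligands spread from -0.29 to 0.52, 4 of 6 kinases and STAT factors lie inside the field, with Jak2 and Tyk2 right of it, and 5 STAT3 targets with an unadjusted p under 0.05 lie left of the field.

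Markers of other cells were also set beside the family, since Il6 and Il11 are known products of fibroblasts. Fibroblast markers had a median of 0.01 over 10 genes, 6 above 0 and 4 below, with list medians of 6.13 and 6.21 on the A-FABP arrays and 6.24 and 6.20 on the PBS arrays. Pdgfra, Pdgfrb and Col3a1 of that list were bright, at percentiles 96.9, 90.5 and 89.4, and Lum and Fap were dim, at percentiles 20.9 and 26.7. These 5 were picked after their levels were seen. The fibroblast median turned to -0.0041 after cyclic loess, -0.023 after repeated quantile normalization and -0.020 without A-FABP replicate 1. Endothelial and adipocyte markers had medians of -0.03 and -0.09 over 8 genes each. Both turned above 0 after cyclic loess (0.043 and 0.010). The endothelial median did so also after median centring (0.038), repeated quantile normalization (0.0070) and without A-FABP replicate 1 (0.066). With only brighter probe sets the values were 0.10 and 0.058, but these are not medians over 8 genes. The filter kept only Cdh5 and Eng of the endothelial markers and only Plin1 of the adipocyte markers. The part of other cells in the differences of Il6 and Il11 was not tested.

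**Figure D5:**
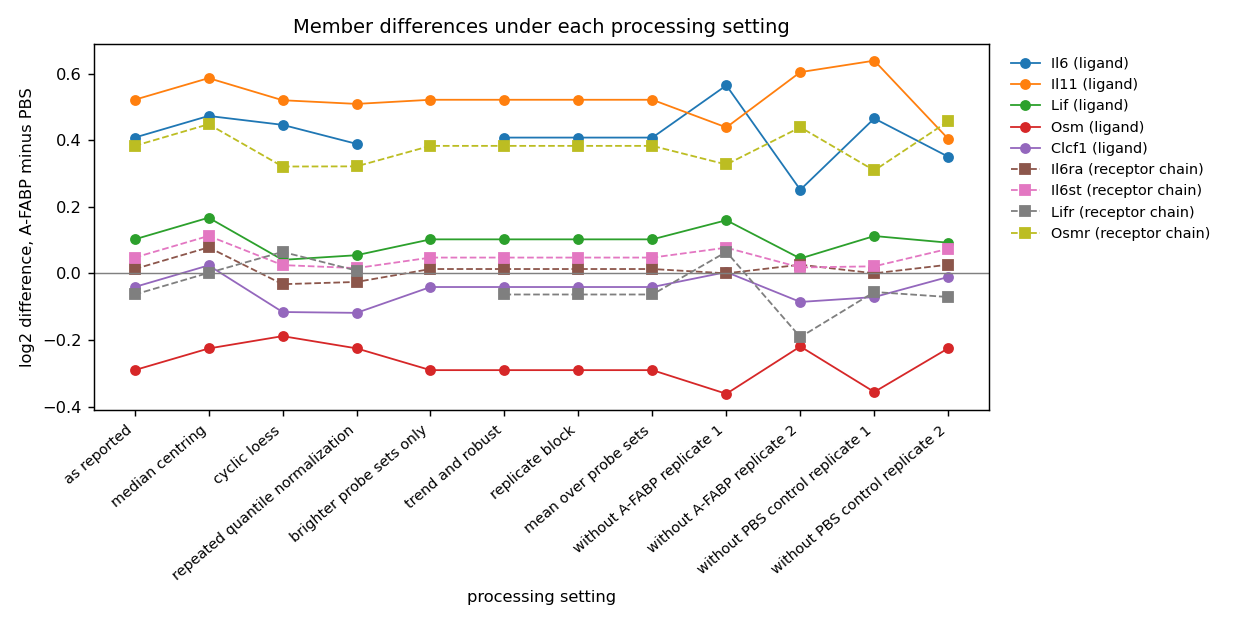
Log2 difference (A-FABP minus PBS, vertical axis) of each member under the reported setting and the alternatives along the horizontal axis; circles are ligands and squares receptor chains, and a gap marks a gene that the filter removed. Il11, Il6 and Osmr stay between 0.25 and 0.64, Osm stays between -0.36 and -0.19, and the points of Clcf1, Il6ra and Lifr fall on both sides of 0.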

How the data were processed

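Total RNA of 4 samples of EO771 cells, 2 with A-FABP and 2 with PBS, was labelled with biotin and hybridised to single-colour arrays, per the labels. The authors deposited log2 values, 1 per probe set on each array, from RMA, and Partek 6.6 is also named, both per the submitters' processing notes. RMA shrinks differences near background. No label names the array design or a genome build. The platform annotation named 1 gene for 23521 of 41345 probe sets, several for 1814 and none for 16010, and 22180 genes resulted.

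Differences were fitted with limma 3.58.1 (lmFit, then eBayes) on the whole table in R 4.3.3, without a block, two-sided, with Benjamini-Hochberg adjustment at 0.05 (2 residual and 1.91 prior degrees of freedom). The fit was tested on simulated data. Deviations of same-numbered arrays from their group means had r = -0.0089 over all probe sets, and the numbers were not taken to pair them. Alternatives were 3 other scalings, a level filter, trend and robust settings, a replicate block, averaged probe sets and each array left out. Members, gene lists and the naming rule (all members, other family genes, the 4 lowest p per list and 7 fixed pathway genes) were chosen with earlier results of these data known. Not all of the genes the rule allows are named. Detection was not called, and the number of arrays limits precision. RefSeq (GRCm38.p6) supplied promoter sequences and gene order only.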

Additional observations from a re-analysis of the deposited data

How the results depend on the processing

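No alternative called a probe set or gene at a limma adjusted p of 0.05: the count was 0 in each. Il11, Il6, Osmr, Lif, Il6st and Osm kept their direction under every alternative that gave them a value, and the level filter removed Il6 and Lifr. The number of members with an unadjusted p under 0.05, 4 as reported, was 2 after repeated quantile normalization, 2 with trend and robust settings, 2 with the replicate block and 1 to 2 with an array left out. With the replicate block Il11 and Osmr were the 2, and no call changed. The ligand median (0.10) was 0.17 after median centring, 0.041 after cyclic loess, 0.031 with the level filter, which removed Il6, and 0.05 to 0.16 with an array left out. The receptor median (0.03) was 0.096 after median centring and 0.011 to 0.071 with an array left out. The cause was not tested.

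Signs turned for genes near 0. After median centring the values were 0.024 for Clcf1, 0.0019 for Lifr, 0.044 for Stat3, 0.033 for Cntfr, 0.044 for Jak1 and 0.055 for Socs1. After cyclic loess they were -0.032 for Il6ra, 0.065 for Lifr and 0.077 for Cntfr, and after repeated quantile normalization -0.025 for Il6ra, 0.0087 for Lifr and 0.039 for Cntfr. With an array left out, Clcf1 ranged from -0.086 to 0.0042, Lifr from -0.19 to 0.065, Cntfr from -0.086 to 0.022 and Il27ra from -0.24 to 0.049. Over 143 values of the medians of the other 13 lists, 53 moved by more than the spread between replicates. Under the level filter such a median covered only the genes that the filter kept. With 2 arrays per group, differences inside the printed intervals were not resolved.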
